A study of Mus musculus with 11 samples.

Results

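This report describes 68 genes of the extracellular matrix and of the cell surface receptors that hold it, in the ventricles of mice whose hearts had enlarged with or without dilatation. They were chosen by gene symbol, with earlier results of these data known, so the shares below are not those of a list picked blind. The symbols are those of collagens, laminins, fibulins, thrombospondins, matrix metalloproteinases, their tissue inhibitors and integrins with a numbered symbol. Added to these are Fn1, Sparc, Bgn, Dcn, Lum, Nid1 and Nid2. All 68 were among the 8106 named genes and 12097 features (genes or unnamed spots) that could be tested. They were read by 113 spots, and 29 of them had 2 or more spots. A value on all 11 arrays was found for 65 of the members, and the other 3 had a value on 10 arrays. One member, Itgb3bp, matched by its symbol but codes for a centromere protein and not for an integrin, and is kept apart in the groups below (Dil minus WT -0.01 ± 0.05 on the log2 scale).

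The mice were C57/BL6 males of the TG1306 line, about 60 weeks old, and the RNA came from both ventricles and the septum. The transgene of this line makes the heart overproduce angiotensinogen, the precursor of angiotensin II. Of the 12 mice, 4 were wild-type littermates without the transgene (WT), 4 were heterozygous carriers with hypertrophic hearts (Hyp) and 4 were heterozygous carriers with dilated hearts (Dil). Carriers were placed in Hyp or Dil by genotype, chamber shape, cardiac weight index (the heart's weight relative to the body's) and hypertrophic marker expression, so the 2 carrier groups are defined by the state of the heart. The index was 4.2 to 4.9 mg/g in WT, 5.3 to 5.8 mg/g in Hyp and 7.8 to 9.2 mg/g in Dil.

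Each array compared 2 mice that carry the same number, from 1 to 4, and these mice are called a set. The Hyp mouse of set 3 is labelled with a cardiac weight index of 5.3 mg/g on its array with WT and 5.6 mg/g on that with Dil. It was taken as the same mouse on both arrays, which was not tested. There were 4 arrays of WT with Hyp, 3 of WT with Dil and 4 of Hyp with Dil, and set 2 had no array of WT with Dil among those analysed here. A set value is the log2 ratio of 2 groups within a set, with the dye effect taken out, and for Dil minus WT in set 2 it is the sum of the other 2 arrays of that set. A fitted change joins the 11 arrays and is given with its standard error (SE). A gene is called higher or lower when limma's p-value, adjusted by Benjamini-Hochberg over all 12097 features, is under 0.05. Ratios were read as Cy5 over Cy3 and their logarithm as base 2, neither of which the sources used here state. The direction is therefore only likely: Agt (2.15 in Dil, 2.09 in Hyp) and Nppb (2.53 and 1.02), the genes of angiotensinogen and of a hypertrophic marker, come out higher in both carrier groups with it, and with the opposite direction every sign below would turn. Ratios hold no levels, so the tissue label could not be checked by the abundance of heart muscle genes such as Ttn and Ryr2. The presence of their values does not check it, since each array had a value at 17207 of 17664 spots.

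The matrix of the heart has an interstitial and a pericellular layer. Fibrillar collagens, bound together by fibronectin, small proteoglycans and collagen-binding glycoproteins, form the scaffold between muscle bundles, and fibroblasts make most of it. Each muscle cell and capillary also lies on a basement membrane of type IV collagen, laminins and nidogens, to which cells attach through integrins. Metalloproteinases cut these proteins, TIMPs restrain the metalloproteinases, and accumulation of fibrillar matrix is called fibrosis.

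Dilated hearts were compared with WT hearts first. Fbln2, Col4a1 and Itga9 were called higher and Lamb3 lower, which makes 4 of 68 members (5.88%) against 2.15% of all features called in this comparison. By direction, 3 members (4.41%) were higher against 1.0% of features, and 1 member (1.47%) was lower against 1.15%. Before adjustment, 21 members were higher and 4 lower at p under 0.05 (30.9% and 5.88%), against 8.09% and 8.15% of all features. The values of all 4 sets were above 0 in 17 members (25.0%, against 11.1% of features) and below 0 in 4 (5.88%, against 11.9%). Values above 0 were found for 47 of 68 members (69.1%, against 51.1% of features), with a median of 0.10 on the log2 scale, where the median of all features was 0.0029. The members' median was 0.05 without set 3 and 0.06 with every array scaled to one spread. Members share mice and arrays, so these counts are not independent of each other.

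The medians of the members by set were -0.02, 0.0042, 0.24 and 0.13 in sets 1 to 4. On the WT with Dil arrays of sets 3 and 4 the whole table spread more widely, with a scaled median absolute deviation of 0.335 and 0.354 over all spots, than on that of set 1 (0.172), and the part of this in the members' values was not tested. When every array was scaled to one spread, 0 members were called (limma, adjusted p), with 18 at unadjusted p under 0.05, and 99 features in place of 260. On leaving out 1 set at a time, the calls were Col5a1 and Fbln2 without set 1 and Itga8 and Lamb3 without set 2. Without set 3 or set 4, 0 members were called (14 at unadjusted p under 0.05 in each). Over all features 121, 80, 0 and 12 were called without sets 1, 2, 3 and 4, so without set 3 no feature at all was called. With the sets as a replicate block, which tests the 4 set values alone, 0 members and 6 of all features were called. In this block test 21 members had an unadjusted p under 0.05, and the adjusted p was 0.0592 for Lamb3, 0.154 for Col4a1, 0.157 for Itga9 and 0.196 for Fbln2. The column of the WT1 and Hyp1 array was displaced against the other arrays and was moved back, and with this array left out only Lamb3 was called (adjusted p = 0.0343), with Fbln2 at 0.05, Col4a1 at 0.0642 and Itga9 at 0.0644.

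Upstream sequence is shown for 4 of the members whose Dil minus WT values in sets 3 and 4 were both 0.98 or more. They were picked to cover 3 roles: Col3a1 and Col1a2 are chains of fibrillar collagen, Sparc binds collagen and Timp1 inhibits metalloproteinases. Fn1, Thbs1, Bgn and Fbln2 also had such values and are not shown. Each run is the 250 bases before the first listed transcript start, read 5′ to 3′ on the gene's own strand, from the RefSeq tables of build GRCm38.p6. Capitals mark matches, on either strand, to short motifs: the letters CCAAT, after which one box is named, the GC box with letters GGGCGG, the TATA box, searched as the letters TATAAA, and the AP-1 site, searched as the letters TGANTCA. The positions are chr1:45311288-45311537 on the plus strand for Col3a1, chr6:4505368-4505617 on the plus strand for Col1a2, chr11:55420081-55420330 on the minus strand for Sparc and chrX:20869916-20870165 on the plus strand for Timp1.
Col3a1: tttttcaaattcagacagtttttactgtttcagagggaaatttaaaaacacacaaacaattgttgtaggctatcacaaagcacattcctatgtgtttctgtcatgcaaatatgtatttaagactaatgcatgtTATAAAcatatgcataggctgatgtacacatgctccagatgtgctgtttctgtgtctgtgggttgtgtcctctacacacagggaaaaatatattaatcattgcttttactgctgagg
Col1a2: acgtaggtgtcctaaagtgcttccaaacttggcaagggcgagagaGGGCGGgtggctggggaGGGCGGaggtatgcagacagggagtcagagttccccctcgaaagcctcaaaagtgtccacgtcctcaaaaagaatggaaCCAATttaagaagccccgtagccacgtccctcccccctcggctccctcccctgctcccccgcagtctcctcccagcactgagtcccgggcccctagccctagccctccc
Sparc: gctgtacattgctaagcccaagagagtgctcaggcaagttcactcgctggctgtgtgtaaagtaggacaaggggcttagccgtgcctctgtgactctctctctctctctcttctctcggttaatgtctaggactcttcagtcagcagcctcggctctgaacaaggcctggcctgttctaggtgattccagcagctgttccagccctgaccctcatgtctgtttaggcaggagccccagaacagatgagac
Timp1: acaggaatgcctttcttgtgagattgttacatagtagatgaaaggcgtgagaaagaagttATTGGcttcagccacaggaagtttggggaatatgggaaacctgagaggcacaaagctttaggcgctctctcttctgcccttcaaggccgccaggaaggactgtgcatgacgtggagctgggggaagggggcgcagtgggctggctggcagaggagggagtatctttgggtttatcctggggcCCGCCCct
Col3a1 has the TATA letters starting at -117 from its transcript start, and Col1a2 has the CCAAT letters at -109 and the GC box letters at -205 and -188. Timp1 has the CCAAT and GC box letters on the other strand, at -190 and -8, and Sparc has no match to these letters in this window. The 32851 windows of the table run 300 bases, from 250 before to 50 after each start, and only the 250 before it were searched. Such letters are common there: 33.8% of the windows hold CCAAT, 32.7% GGGCGG, 12.4% TATAAA and 6.75% TGANTCA. Windows were found for 46 of the 68 members, and of their 54 windows 15, 26, 5 and 6 hold these motifs in the 250 bases searched. A match describes the letters and does not show a bound site.

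Of 7 fibrillar collagens, 0 were called in Dil against WT (against 2.15% of features) and 6 lay above 0 (85.7%, against 51.1%). Of these, 4 had an unadjusted p under 0.05 (57.1% of the 7, against 8.09% of features). In 5 of them (Col3a1, Col5a1, Col1a2, Col1a1 and Col5a2) both set values of sets 3 and 4 were above those of sets 1 and 2, and in Col2a1 and Col24a1 they were not. The median was 0.22, and by set it was 0.02, 0.12, 0.54 and 0.38. It was 0.36 without set 1 and 0.35 on the direct arrays only, but 0.16 without set 3 and 0.15 with every array scaled to one spread. Over genes with a value on all 11 arrays it was 0.56, where Col2a1 and Col24a1, with a value on 10 arrays, drop out. In Hyp against WT the median was 0.01, with sets between -0.10 and 0.13.

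Col3a1 codes for the chain of type III collagen, a fibre of distensible tissue. Its Dil minus WT values were 0.05, 0.12, 1.08 and 0.98 in sets 1 to 4, and its fitted change was 0.62 ± 0.17 (1.54-fold, adjusted p = 0.0975). Col5a1, a chain of the type V collagen that starts fibrils and limits their width, had 0.14, 0.25, 0.85 and 1.44 (fit 0.73 ± 0.19, adjusted p = 0.0735). Both genes were above 0 in each set, with every value of sets 3 and 4 above every value of sets 1 and 2, and neither passed the adjusted threshold. Without set 1, Col5a1 was called (adjusted p = 0.0428). Col1a2, a chain of type I collagen, the main tensile fibre of the heart, had -0.10, -0.19, 1.16 and 0.98 (0.56 ± 0.22, adjusted p = 0.238). Its partner chain Col1a1 had -0.10, 0.13, 0.54 and 0.28 (0.22 ± 0.16, adjusted p = 0.542). Neither type I gene passed. On the direct array of Dil with WT in set 4, before the dye effect was taken out, Col1a1 read -0.10 and Col1a2 0.64, and 1 of the 3 Col1a2 spots had a fitted change of -0.11. Col5a2, which lies next to Col3a1 on chromosome 1, had 0.02, -0.04, 0.33 and 0.38 (0.21 ± 0.08, adjusted p = 0.245). Col2a1, the collagen of cartilage, had -0.03, 0.04, 0.12 and -0.07 (0.02 ± 0.11). Col24a1 had 0.03, 0.24, -0.11 and -0.12 (-0.03 ± 0.07), highest in set 2.

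In Hyp hearts 0 of the 7 were called against WT, as were 0.0% of all features. Col3a1 had 0.08, 0.06, 0.22 and -0.04 in Hyp minus WT (0.11 ± 0.16), and Col5a1 had 0.14, -0.18, -0.05 and 0.29 (0.08 ± 0.18). Col1a2 had -0.16, -0.02, 0.27 and -0.30 (-0.0045 ± 0.21). The Hyp and Dil values of a set share the same WT mouse. Set values of Dil minus Hyp, for sets 1 to 4, were -0.01, 0.43, 0.90 and 1.15 for Col5a1 (0.65 ± 0.18, adjusted p = 0.210) and -0.03, 0.06, 0.86 and 1.02 for Col3a1 (0.51 ± 0.16, adjusted p = 0.299). Neither difference passed. In Dil minus Hyp 0 of 7 fibrillar members were called, against 0.165% of all features.

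**Figure D1:**
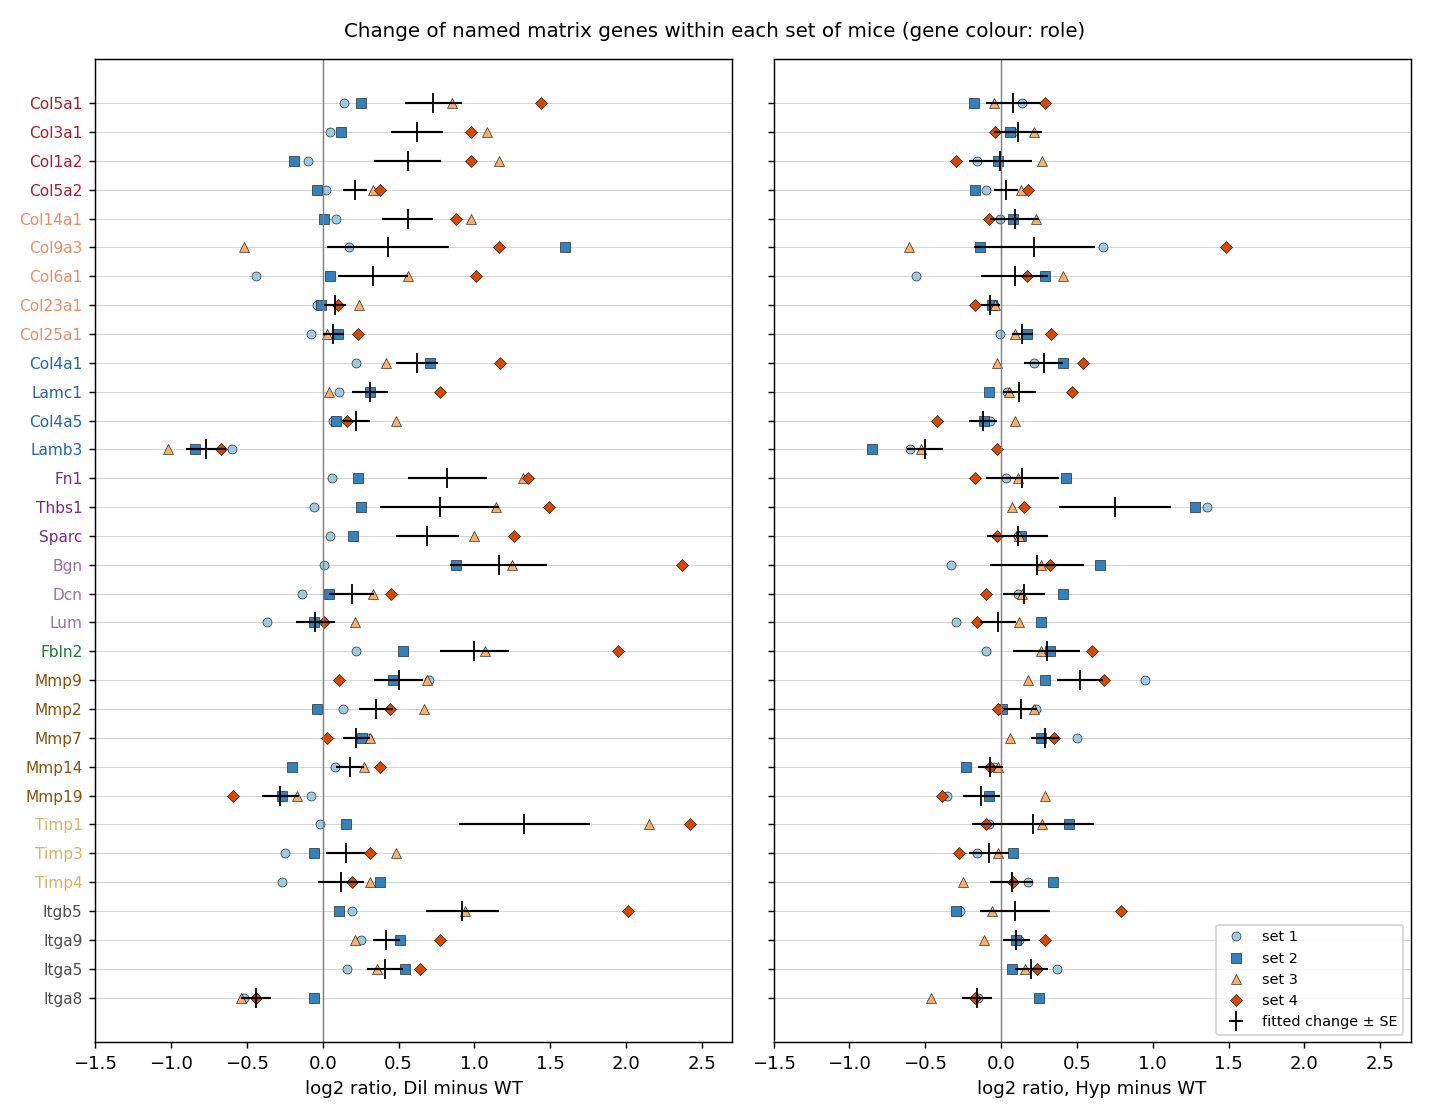
Log2 ratio (x axis) of named matrix genes, grouped and coloured by role (y axis), for Dil minus WT at left and Hyp minus WT at right; coloured points are the 4 sets of mice and black bars the fitted change ± SE. In the left panel the points of sets 3 and 4 of Fn1, Sparc, Col3a1, Col1a2 and Timp1 lie to the right of those of sets 1 and 2, while the 4 points of Lamb3 lie between -1.02 and -0.60.

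Among 8 other collagens of the interstitial matrix and cell surface, 0 were called in Dil against WT (against 2.15% of features). Above 0 lay 7, where 51.1% of features did, and the median was 0.10. Col14a1, a collagen that attaches to the surface of fibrils, had 0.09, 0.01, 0.98 and 0.88 in sets 1 to 4 (0.56 ± 0.17, adjusted p = 0.119), the same split between sets as the fibrillar genes. Col6a1, of the beaded filaments around cells, had -0.44, 0.05, 0.56 and 1.01 (0.33 ± 0.23, adjusted p = 0.527), whereas its neighbour on chromosome 10 and partner chain Col6a2 was at 0.01 ± 0.10. Col9a3, a collagen of cartilage, spread most, with 0.17, 1.60, -0.52 and 1.16 (0.43 ± 0.40), and its sets did not share a direction. The membrane collagens Col23a1 and Col25a1 were at 0.08 ± 0.07 and 0.07 ± 0.07. Col6a4 and Col7a1 were at -0.09 ± 0.18 and 0.11 ± 0.14.

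The basement membrane members lay on both sides of 0. Of 13 genes, 1 was called higher and 1 lower in Dil against WT, where 1.0% and 1.15% of all features were. Above 0 lay 7 and below it 6 (51.1% of features lay above 0), with a median of 0.07 and set medians of -0.03, 0.09, 0.12 and 0.01. Beside the fibrillar median of 0.22, this is a description of both lists with no test, since genes are not replicates. In Hyp against WT the median was 0.03 and 0 were called, as were 0.0% of all features. In Dil against Hyp the median was 0.03, against 0.24 for the fibrillar genes.

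Lamb3 codes for the beta chain of laminin-332, a laminin best known from the basement membrane under epithelia. Its Dil minus WT values were -0.60, -0.84, -1.02 and -0.67 in sets 1 to 4, below 0 in each. The fitted change was -0.77 ± 0.13 (1.71-fold lower, adjusted p = 0.0171). In Hyp minus WT the values were -0.60, -0.85, -0.53 and -0.03 (-0.50 ± 0.12, adjusted p = 0.871), so in sets 1 and 2 Hyp was as low as Dil, in set 3 it lay about midway between WT and Dil and in set 4 it was near WT. The difference between Dil and Hyp was -0.27 ± 0.12 (adjusted p = 0.489), and the values of the 2 carrier groups overlapped. The partner chain Lama3, with 0.30, -0.19, 0.15 and -0.03, was at 0.09 ± 0.12 and did not follow it, and it is read with a dye effect of 0.56. Lamb3 is 1 spot, which was also called when each spot was fitted by itself. It was called in 8 of 14 alternative settings, with adjusted p from 0.0126 to 0.273. Without set 1, 3 or 4 it was not called, where 121, 0 and 12 of all features were.

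Col4a1, a chain of the type IV collagen that forms the network of every basement membrane, rose in Dil hearts. Its values were 0.22, 0.71, 0.42 and 1.17 in sets 1 to 4, all above 0 and without the split between sets 1 and 2 and sets 3 and 4. The fitted change was 0.62 ± 0.14 (1.53-fold, adjusted p = 0.0443). In Hyp it had 0.22, 0.41, -0.03 and 0.54 (0.28 ± 0.13, adjusted p = 0.999), and Dil minus Hyp was 0.34 ± 0.13 (adjusted p = 0.401). Col4a2, which codes for the other chain of the same triple helix, had -0.12, -0.37, 0.03 and -0.14 in Dil minus WT (-0.12 ± 0.06, adjusted p = 0.360). The 2 genes lie head to head on chromosome 8 on opposite strands, and their 300-base promoter windows share 78 bases. In sets 1 to 4 each Col4a1 value was above the Col4a2 value of the same set, but the difference between the genes was not tested. The 3 spots of Col4a1 did not read alike (0.08 ± 0.14, 0.81 ± 0.16 and 0.98 ± 0.31), and the second was called by itself (adjusted p = 0.0345). Col4a1 was called in 4 of 14 settings, with adjusted p from 0.0354 to 0.314. With any 1 set left out it was not called, where 121, 80, 0 and 12 of all features were without sets 1, 2, 3 and 4.

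Col4a5, a type IV chain of specialised basement membranes, had 0.07, 0.09, 0.48 and 0.16 in Dil minus WT (0.22 ± 0.09, adjusted p = 0.264). Its Dil minus Hyp values were 0.14, 0.19, 0.39 and 0.58 (0.33 ± 0.09), above 0 in each set, and its adjusted p of 0.190 was the lowest of all members in that comparison. Lamc1, the gamma chain of most laminins, had 0.11, 0.31, 0.04 and 0.77 (0.31 ± 0.12, adjusted p = 0.225). Lamb1 and the linker Nid1, which joins laminin to type IV collagen, were both at 0.07 ± 0.06, and Nid2 was at -0.09 ± 0.09. Lama5, Lamb2 and Col18a1, of vascular and muscle basement membranes, were at -0.25 ± 0.11, -0.26 ± 0.14 and -0.02 ± 0.07. Among 7 laminin chains 4 lay above 0 and 3 below, and only Lamb3 was called.

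**Figure D2:**
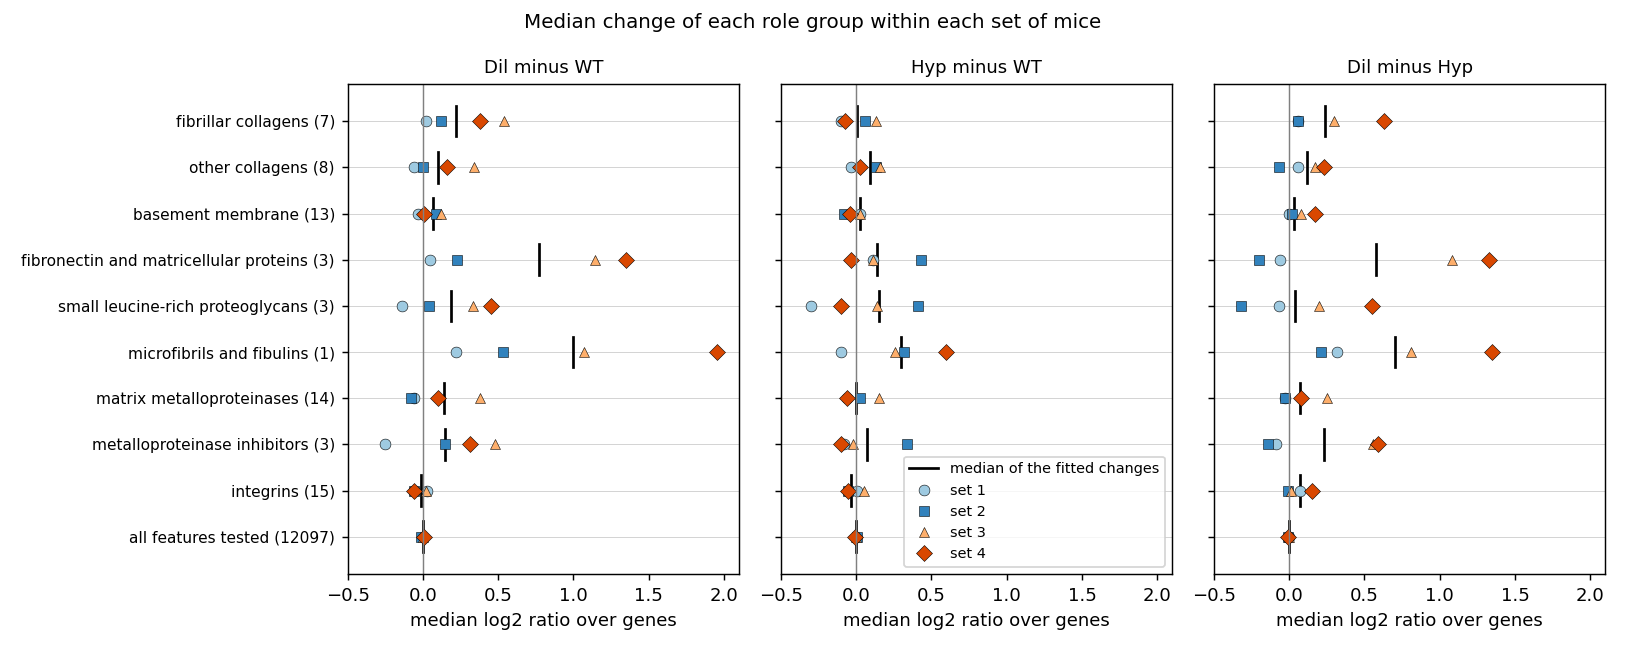
Median log2 ratio over the genes of each role group (x axis; groups and number of genes on the y axis) in the 3 comparisons; points are the 4 sets of mice, black bars the median of the fitted changes. In Dil minus WT the fibrillar median reaches 0.54 and 0.38 in sets 3 and 4, the basement membrane median stays between -0.03 and 0.12, and all features sit at 0.

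Fibronectin and the matricellular proteins, secreted proteins that tune how cells meet the matrix, held the largest group median in Dil hearts among groups of more than 1 gene (0.77 over 3 members). Fn1, the fibronectin gene, on whose fibres collagens assemble, had 0.06, 0.23, 1.32 and 1.35 in sets 1 to 4 (0.82 ± 0.26, 1.76-fold, adjusted p = 0.136). Sparc, a collagen-binding protein of matrix assembly, had 0.05, 0.20, 1.00 and 1.26 (0.69 ± 0.21, 1.62-fold, adjusted p = 0.118). In both genes each set was above 0 and sets 3 and 4 were at least 1.00, while neither was called. Their spots read alike: 0.91 and 0.72 for Fn1, and 0.76, 0.59 and 0.71 for Sparc. In Hyp hearts Fn1 was at 0.14 ± 0.24 and Sparc at 0.11 ± 0.20.

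Thbs1, thrombospondin 1, which activates latent TGF-beta, was high in different sets in the 2 carrier groups. In Dil minus WT its values were -0.06, 0.25, 1.14 and 1.49 in sets 1 to 4 (0.77 ± 0.39, adjusted p = 0.371). In Hyp minus WT they were 1.36, 1.28, 0.07 and 0.15 (0.75 ± 0.37, adjusted p = 0.999). The Hyp mice of sets 1 and 2 and the Dil mice of sets 3 and 4 were thus high, and Dil minus Hyp ran from -1.42 to 1.33 around a fit of 0.02 ± 0.37.

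Of the small leucine-rich proteoglycans, which coat collagen fibrils, Bgn (biglycan) had 0.01, 0.88, 1.25 and 2.37 in Dil minus WT (1.16 ± 0.32, a 2.24-fold change with an adjusted p of 0.0961). Set 1 was at 0 and the other sets at 0.88 or more. Dcn (decorin) had -0.14, 0.04, 0.33 and 0.45 (0.19 ± 0.15), and Lum (lumican), its neighbour on chromosome 10, had -0.37, -0.06, 0.21 and 0.01 (-0.05 ± 0.13). Decorin and lumican therefore stayed within 0.45 of 0 in every set, and biglycan did not.

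Fbln2 codes for fibulin 2, which binds fibronectin and elastic microfibrils, and it is the only fibulin or fibrillin among the members. Its Dil minus WT values were 0.22, 0.53, 1.07 and 1.95, all above 0. The fitted change was 1.00 ± 0.23 (2.00-fold, adjusted p = 0.0486), the largest of the called members. In Hyp hearts it had -0.10, 0.32, 0.26 and 0.60 (0.30 ± 0.22, adjusted p = 0.999), and Dil minus Hyp was 0.70 ± 0.22 with all 4 sets above 0 (adjusted p = 0.280). It was called in 6 of 14 settings, with adjusted p from 0.0305 to 0.344. Without set 2, 3 or 4 it was not called, where 80, 0 and 12 of all features were.

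**Figure D3:**
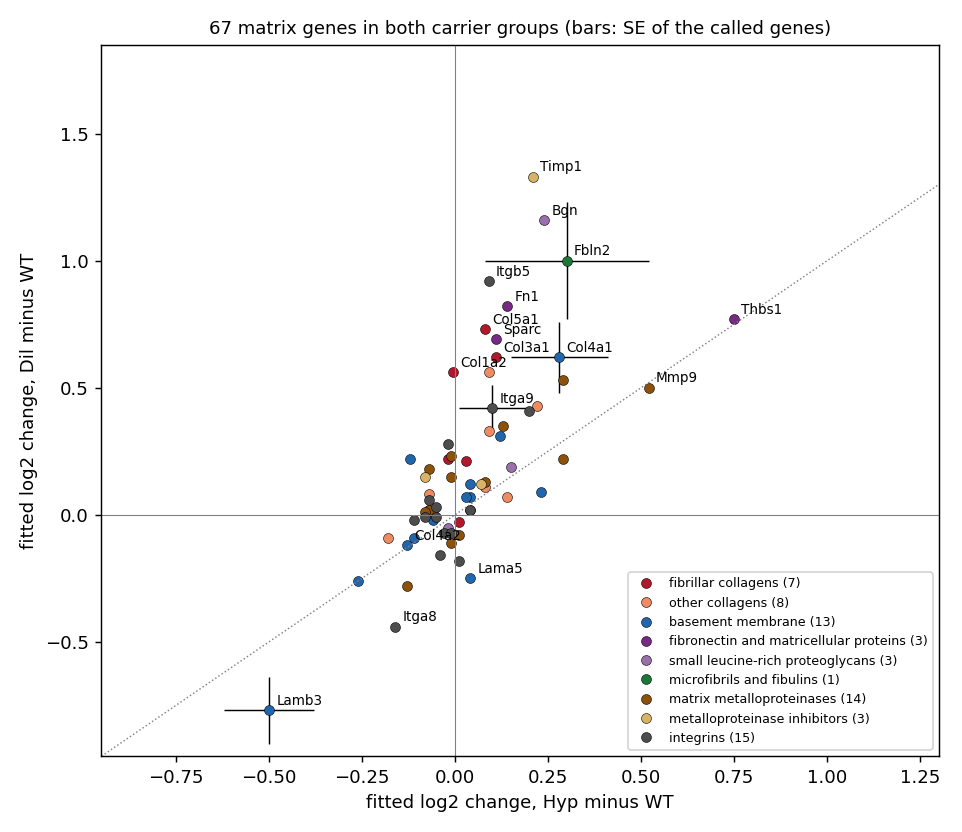
Fitted log2 change of 67 matrix genes in Hyp minus WT (x axis) and Dil minus WT (y axis), coloured by role, with SE bars for the 4 called genes and equal change in both groups as a dotted line. The 2 axes share the WT mice. Timp1, Bgn, Fbln2, Itgb5 and Fn1 lie well above the line, Thbs1 and Mmp9 lie close to it, and Lamb3 lies at -0.50 and -0.77.

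The matrix metalloproteinases did not pass as single genes. Of 14, 0 were called in Dil against WT (against 2.15% of features), 11 lay above 0 (where 51.1% of features did) and the median was 0.14. Mmp2, a gelatinase of fibroblasts, had 0.13, -0.04, 0.67 and 0.44 (0.35 ± 0.11, adjusted p = 0.142), and its membrane activator Mmp14 had 0.08, -0.20, 0.27 and 0.38 (0.18 ± 0.09, adjusted p = 0.331). Mmp2 and Mmp14 were thus higher in sets 3 and 4 than in sets 1 and 2, once dye effects of 0.39 and 0.08 were taken out. Uncorrected, the direct arrays of Dil with WT read 0.57 and 1.13 for Mmp2 with Dil in Cy5 (sets 1 and 3). With Dil in Cy3 (set 4) Mmp2 read 0.15. Mmp3, a stromelysin, had -0.03, 0.42, 1.11 and 0.55 (0.53 ± 0.27, adjusted p = 0.374). Mmp19 was the lowest, with -0.08, -0.27, -0.17 and -0.59 (-0.28 ± 0.12, adjusted p = 0.287), below 0 in each set once its dye effect of 0.32 was taken out. Uncorrected, its direct arrays of Dil with WT read 0.28 and 0.22 with Dil in Cy5 (sets 1 and 3) and -0.93 with Dil in Cy3 (set 4).

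Mmp9, the gelatinase of leukocytes, depends on the dye term more than any other member. Its fitted change was 0.50 ± 0.16 in Dil (adjusted p = 0.151) and 0.52 ± 0.15 in Hyp (adjusted p = 0.900). The uncorrected Hyp minus WT ratios were 2.04 and 1.69 on the arrays with Hyp in Cy5 (sets 1 and 4) and -0.79 and -0.75 on those with Hyp in Cy3 (sets 2 and 3). In Dil minus WT they were 1.76 and 1.62 with Dil in Cy5 and -0.90 with Dil in Cy3. The sign thus followed the dye on all 7 of these arrays, and the fitted dye effect was 1.08, where the median size over all features is 0.07. Mmp7 (0.22 ± 0.09 in Dil, 0.29 ± 0.09 in Hyp) has a dye effect of 0.56.

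Among the tissue inhibitors Timp1 had the largest fitted change of all members in Dil hearts. Its values were -0.02, 0.15, 2.15 and 2.42 in sets 1 to 4 (1.33 ± 0.43, 2.51-fold, adjusted p = 0.142). Sets 3 and 4 were at least 2.15 and sets 1 and 2 at most 0.15, and this spread kept it above the threshold. In Hyp it had -0.08, 0.45, 0.27 and -0.10 (0.21 ± 0.40). Dil minus Hyp was 1.12 ± 0.40 (adjusted p = 0.362), with 0.06, -0.30, 1.89 and 2.52. Timp3, the inhibitor bound to the matrix, had -0.25, -0.06, 0.48 and 0.31 (0.15 ± 0.13), and Timp4, the inhibitor typical of the heart, had -0.27, 0.38, 0.31 and 0.19 (0.12 ± 0.15).

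The integrins, the receptors through which cells hold the matrix, lay on both sides of 0 in Dil against WT. Of 15, 7 were above 0 and 8 below, with a median of -0.01. Called higher was 1 (6.67%, against 1.0% of features) and lower 0, and at unadjusted p under 0.05 were 4 higher and 1 lower (26.7% and 6.67%, against 8.09% and 8.15%). Itga9, an alpha chain that binds tenascin C and fibronectin, had 0.25, 0.51, 0.21 and 0.77 in sets 1 to 4, all above 0. Its fitted change was 0.42 ± 0.09 (1.34-fold, adjusted p = 0.0435). In Hyp it was at 0.10 ± 0.09, and Dil minus Hyp was 0.33 ± 0.09 with each set above 0 (adjusted p = 0.208). Of its 4 spots 2 carried the change (0.89 and 0.82) and the others were at -0.06 and 0.08, and none was called by itself. It was called in 3 of 14 settings, with adjusted p from 0.0336 to 0.325. With any 1 set left out it was not called, where 121, 80, 0 and 12 of all features were without sets 1, 2, 3 and 4.

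Itgb5, the beta chain that pairs with alpha v and binds vitronectin, had 0.19, 0.11, 0.94 and 2.01 (0.92 ± 0.24, 1.89-fold, adjusted p = 0.0843), and in Hyp -0.27, -0.30, -0.06 and 0.79 (0.09 ± 0.23). Dil exceeded Hyp in each set, with 0.46, 0.41, 1.00 and 1.21, though the adjusted p of this difference was 0.229. Itga5, the main fibronectin receptor chain, had 0.16, 0.54, 0.36 and 0.64 (0.41 ± 0.12, adjusted p = 0.106), and the shared beta chain Itgb1 had 0.03, 0.04, 0.57 and 0.34 (0.28 ± 0.10, adjusted p = 0.208). Itga8, a receptor chain of fibroblasts and smooth muscle, had -0.52, -0.06, -0.54 and -0.44 (-0.44 ± 0.10, adjusted p = 0.0529), below 0 in each set. It was just over the threshold here and under it in 5 of 14 settings, with adjusted p from 0.0288 to 0.311. Itga7, the laminin receptor chain of muscle, was at -0.02 ± 0.13, and the other 9 integrins lay between -0.18 and 0.06. Itgae, an integrin of T cells whose symbol has no number, was not a member and was at -0.24 ± 0.11.

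In Hyp against WT 0 of 68 members were called (limma, adjusted p), as were 0.0% of all features. The transgene's own gene Agt, at 2.09, had an adjusted p of 0.871 here, so a call was not reached by a change of that size either, and the lack of calls does not show that the members were alike in both groups. The widest fitted changes were 0.75 ± 0.37 for Thbs1, 0.52 ± 0.15 for Mmp9 and -0.50 ± 0.12 for Lamb3. Before adjustment 2 were higher and 2 lower at p under 0.05 (2.94% each), against 2.43% and 1.98% of all features. Those higher were Mmp9 and Mmp7, both with a large dye effect, and those lower were Lamb3 and Col4a2. The median over members was 0.01, with set medians between -0.05 and 0.09.

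Dil and Hyp hearts were also compared within carriers. The Dil hearts were heavier as well (cardiac weight index 7.8 to 9.2 mg/g, against 5.3 to 5.8 mg/g in Hyp), so dilatation and heart weight cannot be told apart here. Of 68 members 0 were called against 0.165% of all features, with 18 higher and 3 lower at unadjusted p under 0.05 (26.5% and 4.41%, against 5.27% and 4.37%). The lowest adjusted p was 0.190, and the median was 0.08, with 49 of 68 members above 0 (72.1%, against 48.4% of features). Set medians were 0.01, -0.01, 0.19 and 0.21, so here too sets 3 and 4 were higher. Over all spots the Hyp with Dil arrays of sets 3 and 4 also spread more widely than those of sets 1 and 2. Their scaled median absolute deviations were 0.13, 0.17, 0.24 and 0.25 in sets 1 to 4, and the part of this in the members' values was not tested. The 3 lower members were Lama5 (-0.29 ± 0.10), Itga8 (-0.29 ± 0.10) and Lamb3. This comparison shares the Dil mice with Dil minus WT and is no independent support for it.

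In 7 of the 29 members with 2 or more spots, the spots were over 0.5 apart in Dil minus WT, where the median difference was 0.19. Col3a1 had 1.11, 0.20, 0.12 and 1.07, and Col1a2 had 0.82, 0.97 and -0.11. Lama5 had -0.42, -0.54 and 0.20, and Lamc1 had 0.13, 0.07, 0.69 and 0.41. For these genes the fitted change is a mean of clones that disagree, and which clone reads the named transcript was not tested. When each spot was fitted by itself, 2 of 113 member spots were called, 1 each of Col4a1 and Lamb3, against 1.83% of 16471 spots.

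**Figure D4:**
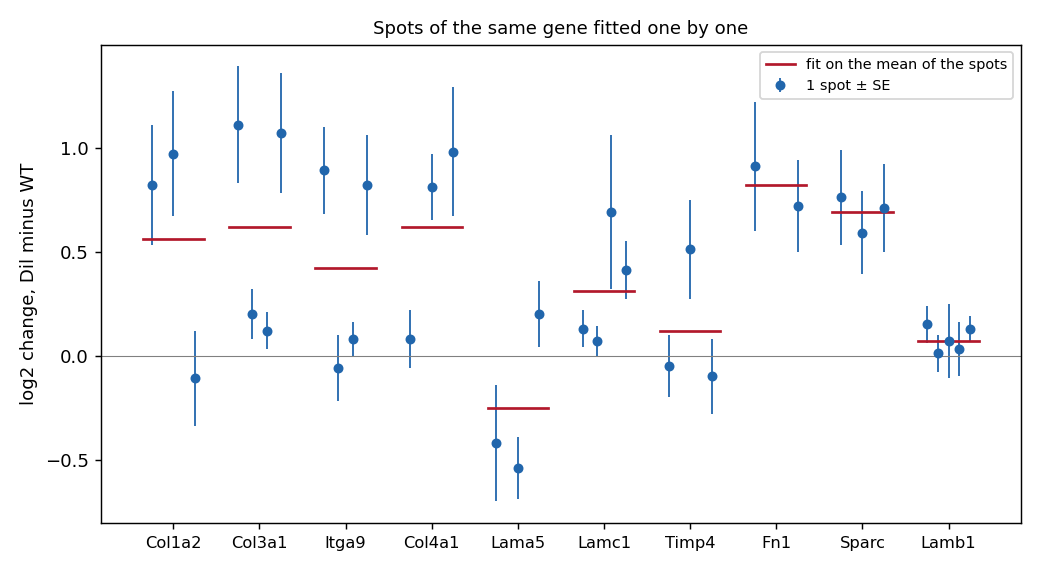
Log2 change in Dil minus WT (y axis) of each spot fitted by itself, with SE bars, for members named on the x axis; red lines show the fit on the mean of the spots. The spots of Sparc, Fn1 and Lamb1 lie within 0.19 of each other, and those of Col1a2, Col3a1, Itga9 and Col4a1 are 0.90 to 1.08 apart.

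Other genes that build, turn over or sense the matrix were measured beside the members, in lists also chosen with earlier results of these data known. Of 79 in 5 lists, 6 were called higher in Dil against WT (7.59%, against 1.0% of features) and 0 lower (against 1.15%). Above 0 lay 65 (82.3%, against 51.1%), and the median was 0.23. With the replicate block 0 of the 79 were called, and on the direct arrays 1 was called higher. With 1 set left out 0 to 5 were called higher (0 without set 3 or set 4, and 1 was called lower without set 1). Over all features 6 were called with the replicate block, 7 on the direct arrays, 0 without set 3 and 12 without set 4. Each of the 6 genes was called in 7 to 10 of 14 settings. Among 14 genes of profibrotic growth factor signalling 2 were called: Tgfb2, a TGF-beta ligand (1.36 ± 0.23, adjusted p = 0.0198; 0.73, 0.50, 1.75 and 2.03 in sets 1 to 4), and Ccn1, a matricellular protein (0.40 ± 0.09, adjusted p = 0.0416). Among 24 other matrix proteins 1 was called, Fstl1, a secreted glycoprotein (0.70 ± 0.14, adjusted p = 0.0326). Of 13 genes of matrix turnover 2 were called, the crosslinking enzyme Tgm2 (1.10 ± 0.17, adjusted p = 0.0143) and the protease Adamts1 (0.76 ± 0.16, adjusted p = 0.0412). Adamts1 had 0.86, 0.80, 0.85 and 0.55 in sets 1 to 4. Of 18 genes on the cell side of adhesion 1 was called, Tln1, the talin that links integrins to actin (0.51 ± 0.08, adjusted p = 0.0169), and it was also called in Dil against Hyp (0.49 ± 0.08, adjusted p = 0.0397), there in 7 of 14 settings. Of 10 genes of collagen folding and processing 0 were called and all 10 lay above 0 (median 0.27), with P4ha2, a collagen prolyl hydroxylase, at 0.38 ± 0.09 (adjusted p = 0.0614). In Hyp against WT 0 of the 79 were called, as were 0.0% of all features.

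Whole ventricle was measured, so more cells of a type and more RNA per cell cannot be told apart. Fibroblast markers that are not members had a median of 0.03 in Dil against WT over 7 measured of 14 listed, with -0.06, 0.05, 0.01 and 0.05 in sets 1 to 4 and 0 called. The 7 went both ways: Vim, which other cell types also express, had -0.25, 0.20, 0.54 and 1.06, Gsn had -0.23, 0.05, -0.43 and -0.06, and Pdgfra and Tcf21 were at -0.20 ± 0.10 and 0.04 ± 0.06. Their part in the members' values was not tested. The 4 macrophage and leukocyte markers measured, of 13 listed, had a median of 0.27, with -0.02, -0.01, 0.22 and 0.70 in sets 1 to 4 and 0 called, and their part was not tested either. The median was -0.01 for 8 endothelial markers of 13 listed, with genes from -0.20 to 0.40. For 4 smooth muscle and pericyte markers of 9 listed it was -0.04, with genes from -0.73 to 0.06. For 5 cardiomyocyte markers of 20 listed it was 0.08, with genes from -0.47 to 2.53, of which Nppb was called. The cardiac weight index of the Dil mice was 8.1, 7.8, 7.8 and 9.2 mg/g in sets 1 to 4. The part of heart weight in the members' values was not tested.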

How the data were processed

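The authors deposited 1 table of log ratios per spot for 11 two-colour cDNA arrays, per the labels of ventricular RNA reverse transcribed with Cy3 or Cy5 nucleotides. Not given in the sources used here are scanner, background correction and normalization. The deposited values were taken as log2 ratios of Cy5 over Cy3. Their range (-3.64 to 5.12) allows natural logarithms too, in which case every fold printed is too small. Array medians were -0.0114 to 0.0068. Each array had a value at 17207 of 17664 spots. Spot brightness is unknown, so spots were not weighted by it. The SE of a feature rests on its number of arrays and on the spread of its ratios.

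The WT1 and Hyp1 column was displaced by 8 pin blocks in 40 of 46 groups of 12 positions. In 24 of 24 blocks the best match to the other arrays of set 1 lay there (correlation at least 0.504, against 0.225 at most elsewhere). The 11520 spots were moved back and 3840 were left without a value. This raised the column's correlation with the ratio those arrays imply from 0.488 to 0.807.

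Control spots (736) were left out. Platform annotation gave 1 symbol to 12563 spots, several to 412 and none to 3953, and the table of mouse genes, matched by identifier at 12555 spots, altered 0 symbols. A gene's spots were averaged, spots with several symbols (for members Itga1 with Pelo, Itga5 with Got2, Timp2 with Cep295nl, Col18a1 with Dync1i1) were not used, and 9 arrays with a value were required. A generalised least squares model per feature held the Dil and Hyp effects against WT, the dye effect and mice as random effects (variance ratio 0.303 shared by all features), and was moderated with limma's eBayes (version 3.58.1, R 4.3.3). The error shared in this way can be too small for genes whose sets spread widely. The script was tested on simulated data. Arrays pair mice of the same number, which is why the 4 sets were also fitted as a replicate block.

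The members, role groups and other lists were chosen with earlier results of these data known. Named members are those that pass in any comparison, the up to 4 with the smallest p in Dil minus WT in each role group and the 1 with the smallest p in each other comparison. Named in addition, after their values were seen, are Col1a1, Col2a1, Col24a1, Col6a2, Col6a4, Col7a1, Col4a2, Lama3, Lama5, Lamb1, Lamb2, Col18a1, Nid1, Nid2, Mmp3, Itgb1, Itga7 and, outside the members, P4ha2, Vim, Gsn, Pdgfra, Tcf21 and Itgae.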

Additional observations from a re-analysis of the deposited data

Results flagged for a closer look

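In 99 groups of 4 set values of the named members, 2 had a set far from the others by Dixon's test. In Hyp minus WT, Sparc was at -0.03 in set 4 and between 0.11 and 0.13 in the other sets. Also in Hyp minus WT, Col23a1 was at -0.17 in set 4 and between -0.06 and -0.04 elsewhere. Chance flags about 1 in 20 groups.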

How the results depend on the processing

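Over 14 alternative settings and 1 added after seeing the data, calls depended on the setting while no direction of a named member's call reversed. In Dil minus WT the 4 members called became 1 without the WT1 and Hyp1 array, 0 with arrays scaled to one spread, 0 on the direct arrays only, 0 with the replicate block, 2 with the median over spots, 2 with each spot fitted by itself (added) and 0 to 2 with 1 set left out. With the WT1 and Hyp1 column as deposited 4 were called, of which 2 (Fbln2, Lamb3) were the same. Over all features the 260 called became 159, 99, 7 and 6 in the first 4 of these, and 0 to 121 with 1 set left out (0 without set 3, 12 without set 4). In Dil minus Hyp the 20 called features became 7 without that array, 41 with its column as deposited, 43 without a dye term, 52 without the random effect, 0 on the direct arrays, 0 with the replicate block and 0 to 15 with 1 set left out. Hyp minus WT had 0 called in each setting, of members and of features. The fibrillar median in Dil minus WT moved to 0.56 over genes with a value on all 11 arrays. The basement membrane median in Hyp minus WT was -0.04 to 0.01 with 1 set left out, and the -0.04 without set 1 was counted as moved. Of the named members' values under these settings 1280 were the same, 61 moved, 35 were weaker and 7 stronger. Of the medians of the role groups other than the fibrillar collagens and the basement membrane, 293 were the same and 1 moved. Spot brightness is unknown, so which members lie near background could not be told, and direction and log base of the ratios rest on the assumptions given above.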

Other observations

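Dye effects over 0.5 on the log2 scale were found for 4 of 68 members, against 0.777% of all features: Mmp9 (1.08), Mmp7 (0.56), Lama3 (0.56) and Lamb2 (0.53), all towards Cy5. The median size was 0.08 over members and 0.07 over all features.

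Elastin and a proteoglycan showed another split between sets than the fibrillar collagens. Eln, the elastic fibre protein, had 0.03, 1.04, 0.46 and 2.44 in Dil minus WT in sets 1 to 4 (0.98 ± 0.35, adjusted p = 0.182 in limma), and Prelp, a leucine-rich proteoglycan of basement membranes, had 0.15, 1.58, 0.21 and 1.74 (0.82 ± 0.28, adjusted p = 0.157). Both were highest in sets 2 and 4, neither was called, and both were named here after their values were seen. Mfap4, a microfibril protein, had 0.08, 0.15, 1.14 and 1.43 (0.78 ± 0.21, adjusted p = 0.0912), the split seen in Fn1 and Sparc.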
